A study of Mus musculus with 6 samples.

Results

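Imprinted genes are transcribed mainly from the copy inherited from one parent, because DNA methylation laid down in the germline at imprinting control regions silences the other copy. They lie in clusters, in which long noncoding RNAs such as Snhg14, Meg3 and Kcnq1ot1 run beside growth regulators such as Igf2, Grb10 and Cdkn1c. Several of them, among them H19, Igf2 and Dlk1, are known for their high expression in fetal liver (FL).

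A list of 37 imprinted mouse genes was followed on the arrays of E14.5 FL, chosen as known imprinted genes and grouped by cluster and by the parental copy that is expressed. Of the 37, 32 had at least 1 probe set annotated to that gene alone, 94 probe sets in all, out of 18193 genes and 45037 probe sets on the array. Rtl1, Dio3 and Zrsr1 had no probe set named for them here. H19 and Snurf lay only on probe sets that also name another gene, and these are described apart. Each gene was represented by its brightest probe set, the one with the highest mean log2 signal over the 6 arrays, and 11 of the 32 lay under the median of all probe sets (4.91), where the signal of single arrays scattered most.

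The study compared bulk FL cells of 3 Pogz+/+ and 3 Pogz-/- embryos, 1 array for each. All embryos were at E14.5 and on a congenic C57BL/6 background. Pogz-/- embryos carried a germline deletion of part of Pogz, which encodes a zinc finger protein, and the null allele was present in every cell of the embryo, not only in blood cells. RNA of both parental copies was measured together, so that a change of total RNA is reported and not which copy it came from. In bulk FL, fewer cells of a type and less RNA per cell cannot be told apart.

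One array, Pogz+/+ replicate 1, differed from the rest. The 3′ to 5′ signal ratio of its β-actin control, a sign of RNA or target quality, was 52.3, against 3.72 to 6.63 in the other 5, and its correlation with them was 0.794 to 0.810, against 0.884 to 0.906 among themselves. Both control ratios, β-actin and Gapdh, separated the genotypes, with all Pogz+/+ arrays above all Pogz-/- arrays, and the part of this difference in the results below was not tested. Values are therefore given over all 6 arrays with limma's plain fit, in which genotype is the only term, and again with the trend and robust options of limma after Pogz+/+ replicate 1 was left out, which leaves 2 Pogz+/+ arrays. A gene is said to rise or fall where its adjusted p, over all genes, is under 0.05.

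Snhg14 and Snrpn start in windows that look alike. Snhg14 is the host RNA of the small nucleolar RNA (snoRNA) clusters of the Prader-Willi/Angelman cluster, and in the RefSeq gene table its span holds or crosses 206 snoRNA genes and runs across Ube3a, on which it lies antisense. RefSeq's promoter windows (GRCm38.p6, 250 bases before to 50 after a start) put a start of Snhg14 and a start of Snrpn in the same window, farthest upstream, and 2 further starts of Snrpn between it and the start shared by Snrpn and Snurf. The windows are printed because Snhg14 changed with genotype while the probe sets of Snrpn and Snurf were not called; which start each probe set reports is not known here. Capitals mark, in the first 3, the run of 49 bases that all 3 hold and, in the last, its CG dinucleotides.
Snhg14 and Snrpn, chr7:60450128-60450427, minus strand: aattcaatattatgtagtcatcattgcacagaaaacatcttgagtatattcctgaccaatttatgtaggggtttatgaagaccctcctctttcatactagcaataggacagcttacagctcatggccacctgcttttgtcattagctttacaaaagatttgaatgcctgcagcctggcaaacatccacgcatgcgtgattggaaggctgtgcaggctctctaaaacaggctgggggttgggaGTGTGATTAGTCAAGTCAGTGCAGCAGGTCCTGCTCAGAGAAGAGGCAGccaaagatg
Snrpn, chr7:60140176-60140475, minus strand: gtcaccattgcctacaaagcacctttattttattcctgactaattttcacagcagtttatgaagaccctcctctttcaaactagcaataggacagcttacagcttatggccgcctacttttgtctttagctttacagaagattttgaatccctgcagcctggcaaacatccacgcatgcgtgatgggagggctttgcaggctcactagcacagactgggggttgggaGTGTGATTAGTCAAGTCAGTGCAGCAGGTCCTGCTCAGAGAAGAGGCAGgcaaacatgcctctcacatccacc
Snrpn, chr7:60047929-60048228, minus strand: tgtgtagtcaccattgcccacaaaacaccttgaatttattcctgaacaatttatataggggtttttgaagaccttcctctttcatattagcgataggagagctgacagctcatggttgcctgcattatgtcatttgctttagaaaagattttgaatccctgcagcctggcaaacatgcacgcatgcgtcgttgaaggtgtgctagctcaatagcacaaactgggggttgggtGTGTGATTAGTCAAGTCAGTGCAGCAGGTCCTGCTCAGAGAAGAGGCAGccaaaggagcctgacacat
Snrpn and Snurf, chr7:60005150-60005449, minus strand: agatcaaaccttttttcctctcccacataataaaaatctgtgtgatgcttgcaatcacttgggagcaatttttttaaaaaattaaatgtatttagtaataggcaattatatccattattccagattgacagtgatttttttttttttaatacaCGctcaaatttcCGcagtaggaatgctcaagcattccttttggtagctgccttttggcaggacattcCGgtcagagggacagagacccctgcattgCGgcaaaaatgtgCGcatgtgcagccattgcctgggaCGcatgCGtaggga
No other of the 32817 windows of the reference held the 49-base run on either strand. The longest run that any of the 3 shares with the window of Snrpn and Snurf is 10 bases. CG dinucleotides numbered 2, 3 and 4 in the 3 upstream windows and 7 in the last, where the median over all windows is 7. The letters TGCCGC, the core motif of the imprint-protecting protein ZFP57, were searched on both strands and occur in the window of Snrpn and Snurf and in none of the 3 upstream ones. They occur in 11.6% of all windows and in 10 of the 43 windows of listed genes (23.3%), and an occurrence is a description of the letters, not a binding site.

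Snhg14 had the smallest adjusted p of the 32 imprinted genes in both fits. Its log2 signal was 5.64, 4.83 and 5.18 in the Pogz+/+ arrays and 7.95, 7.44 and 7.56 in the Pogz-/- arrays. Every Pogz-/- array lay above every Pogz+/+ array by more than either group's range. Without Pogz+/+ replicate 1 it rose by 2.65 on the log2 scale, 6.28-fold (SE 0.25, adjusted p = 0.000488 in limma's trend and robust fit). The mean went from 5.001 ± 0.25 (SD, n = 2) to 7.65 ± 0.27 (SD, n = 3). Over all 6 arrays the log2 fold change was 2.44 (SE 0.30), with an adjusted p of 0.216 in the plain fit and 0.0212 with trend and robust.

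The other probe sets of Snhg14 also had higher signal in Pogz-/- FL. The second was 2.88, 4.97 and 5.25 in Pogz+/+ and 6.01, 6.26 and 6.73 in Pogz-/- (log2 fold change without replicate 1 of 1.23, SE 0.32, adjusted p = 0.0749 over probe sets), again without overlap. The dimmest was 0.14, 0.60 and -0.24 in Pogz+/+ and -0.48, 2.61 and 3.23 in Pogz-/-, so that its groups overlapped (log2 fold change 1.60, adjusted p = 0.566). Where the 3 probe sets lie along the long transcript, and on which strand relative to Ube3a, is not known here.

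The paternally expressed protein genes next to Snhg14 did not pass the test, and their differences from Snhg14 were not tested. Snrpn, a spliceosome protein, was 5.27, 4.51 and 1.31 in Pogz+/+ and 4.63, 3.75 and 4.12 in Pogz-/-, with a log2 fold change of 0.47 over 6 arrays and 1.26 without replicate 1 (SE 1.03, adjusted p = 0.559). The groups overlapped, and Pogz+/+ replicate 3 alone was far below the rest. Of 6 probe sets that name both Snurf, a small protein encoded upstream on the same transcript, and Snrpn, 4 were higher in Pogz-/- over 6 arrays and 5 without replicate 1, with log2 fold changes of -0.32 to 2.27 and adjusted p from 0.419 to 0.886. The brightest of these was 7.17, 8.48 and 7.89 in Pogz+/+ and 8.81, 8.68 and 8.08 in Pogz-/-, a log2 fold change of 0.33 without replicate 1 (SE 0.23). These ranges overlap, and the dimmer shared probe sets had SEs of up to 1.35.

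Of the paternally expressed genes at the far side of the cluster, Mkrn3, Ndn and Magel2 had lower means in Pogz-/- and Peg12 a higher one. Mkrn3, a makorin ubiquitin ligase, was 5.15, 3.40 and 3.58 in Pogz+/+ and 1.34, -0.61 and 0.31 in Pogz-/-. All its Pogz-/- arrays lay below all Pogz+/+ arrays, but in a range where single arrays scatter widely, and it was not called (log2 fold change -3.69 over 6 arrays, unadjusted p = 0.0022, adjusted p = 0.297; -3.14 without replicate 1, SE 1.03, adjusted p = 0.126; -0.049 over 6 arrays with a floor of 32). Ndn, the growth suppressor necdin, was 6.83, 5.72 and 5.90 in Pogz+/+ and 5.12, 5.61 and 5.80 in Pogz-/-. On this probe set, its brightest, the groups overlapped and the log2 fold change was -0.64 over 6 arrays and -0.30 without replicate 1 (adjusted p = 0.702). Of its 8 probe sets, 7 were lower in Pogz-/- in both fits. In 4 of the 8 all Pogz-/- arrays lay below all Pogz+/+ arrays. Of all genes, counted by their brightest probe set alone and so not in the same way, 16.3% did. Another probe set, named after its values were seen, was 6.28, 6.83 and 6.56 in Pogz+/+ and 4.77, 5.60 and 4.80 in Pogz-/-. It was almost as bright over the 6 arrays, and brighter in Pogz+/+ without replicate 1 (mean 6.70 against 5.81). It fell by 1.64 without replicate 1 (SE 0.35, adjusted p = 0.0339 over probe sets, 0.374 over 6 arrays in the plain fit), a call that ended when intensities under 32 were set to 32 (adjusted p = 0.0532).

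Magel2, a MAGE family protein of endosomal sorting, was 6.88, 5.001 and 5.61 in Pogz+/+ and 4.40, 5.50 and 5.04 in Pogz-/- (log2 fold change -0.85 over 6 arrays and -0.32 without replicate 1). Peg12, a GSK3 binding protein, was 5.18, 4.07 and 2.04 in Pogz+/+ and 4.10, 3.73 and 4.09 in Pogz-/- (0.21 and 0.92). The groups of both genes overlapped, and neither was called.

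The maternally expressed genes of the cluster were also not called. Ube3a, the E6-AP ubiquitin ligase whose paternal copy is silenced by Snhg14 in neurons but not in most other cells, was 9.34, 9.53 and 9.65 in Pogz+/+ and 9.87, 9.71 and 9.83 in Pogz-/-. Its Pogz-/- arrays all lay above its Pogz+/+ arrays, but the difference was small (log2 fold change 0.29 over 6 arrays; 0.21 without replicate 1, SE 0.11, adjusted p = 0.329). Of its 6 probe sets, 3 were higher and 3 lower over 6 arrays. Atp10a, a phospholipid flippase, was 6.38, 5.24 and 5.98 in Pogz+/+ and 5.23, 5.33 and 5.55 in Pogz-/- (-0.49 and -0.24). The table of RefSeq genes places further noncoding genes at the locus, of which Ipw and the snoRNA gene Gm26504, both within the span of Snhg14, and 4 Riken genes between Snrpn and Ndn had probe sets. None of these 6 genes was called without replicate 1 on its brightest probe set, and their log2 fold changes were -1.46 to 0.18. Gm26504 was 5.98, 4.005 and 4.15 in Pogz+/+ and 3.65, 1.60 and 3.42 in Pogz-/-, a dim signal in which all Pogz-/- arrays lay below all Pogz+/+ arrays, unlike Snhg14 (log2 fold change -1.82 over 6 arrays; -1.19 without replicate 1, adjusted p = 0.565).

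**Figure D1:**
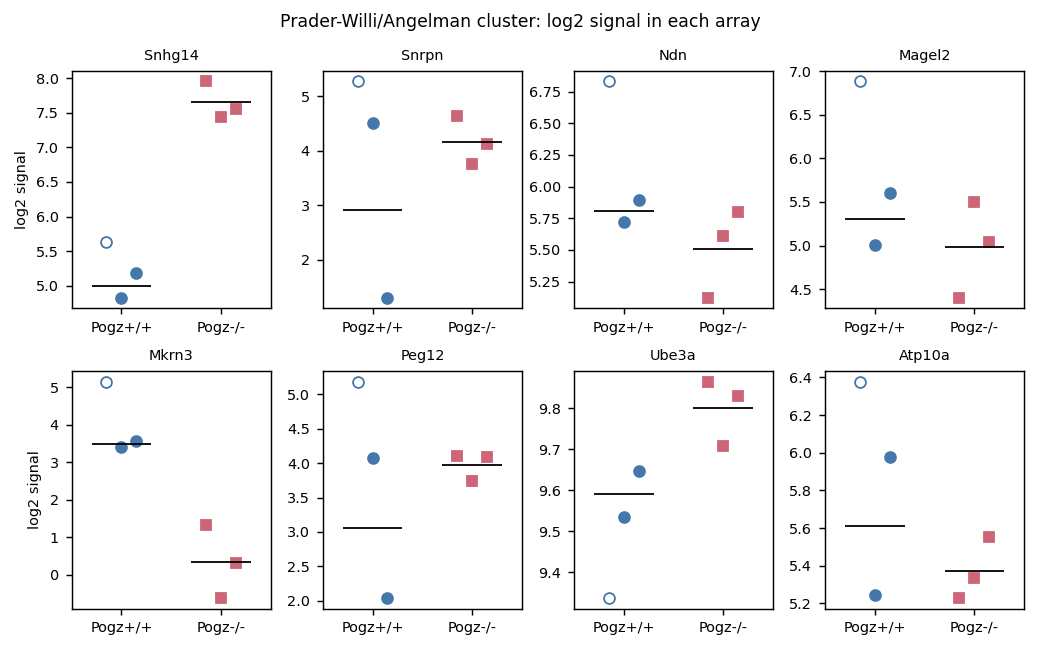
Log2 signal (y axis, a separate scale in each panel) of the 8 genes of the Prader-Willi/Angelman cluster in each array, by genotype; open circles are Pogz+/+ replicate 1, filled circles the other Pogz+/+ arrays, squares Pogz-/- arrays, and lines are means without replicate 1. Snhg14 is higher and Mkrn3 lower in all Pogz-/- arrays, Ube3a is higher by 0.21, and the groups of the other 5 genes overlap.

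Of the 32 imprinted genes, 3 rose and none fell when Pogz+/+ replicate 1 was left out. They were Snhg14, Gnas and Grb10, or 9.38% of the 32, where 2.41% of all genes rose and 2.07% fell. Over 6 arrays with trend and robust 1 member, Snhg14, rose (3.12%), beside 0.0989% of all genes that rose and 0.022% that fell. In the plain fit over 6 arrays none of the 32 and 0 of 18193 genes (0%) were called, while Snhg14 and Mkrn3 were the 2 members with an unadjusted p under 0.05, where 13.1% of all genes had one. All 3 Pogz-/- arrays lay above all Pogz+/+ arrays for 6 members (18.8%; 10.8% of all genes), which were Snhg14, Ube3a, Gnas, Grb10, Kcnq1ot1 and Copg2. They lay below for 5 members (15.6%; 16.3% of all genes), which were Mkrn3, Meg3, Igf2r, Impact and Ppp1r9a. The members below are thus at the share of all genes, and no test was made of the members as a group.

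As a group the members had no common direction. Over 6 arrays 12 were higher and 20 lower in Pogz-/-, with a median log2 fold change of -0.25 beside -0.17 for all genes. Without replicate 1, 14 were higher and 18 lower, with a median of -0.19 beside -0.10. After median centring of the 6 arrays 19 of the 32 were higher, with a median of 0.21 beside 0.29 for all genes, so that the split followed the scaling. The 17 paternally expressed members had a median of -0.25 over 6 arrays and -0.10 without replicate 1, and the 14 maternally expressed ones -0.25 and -0.26. Of the paternal group 1 rose, Snhg14, and of the maternal group 1, Grb10; Gnas has transcripts from either copy.

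**Figure D2:**
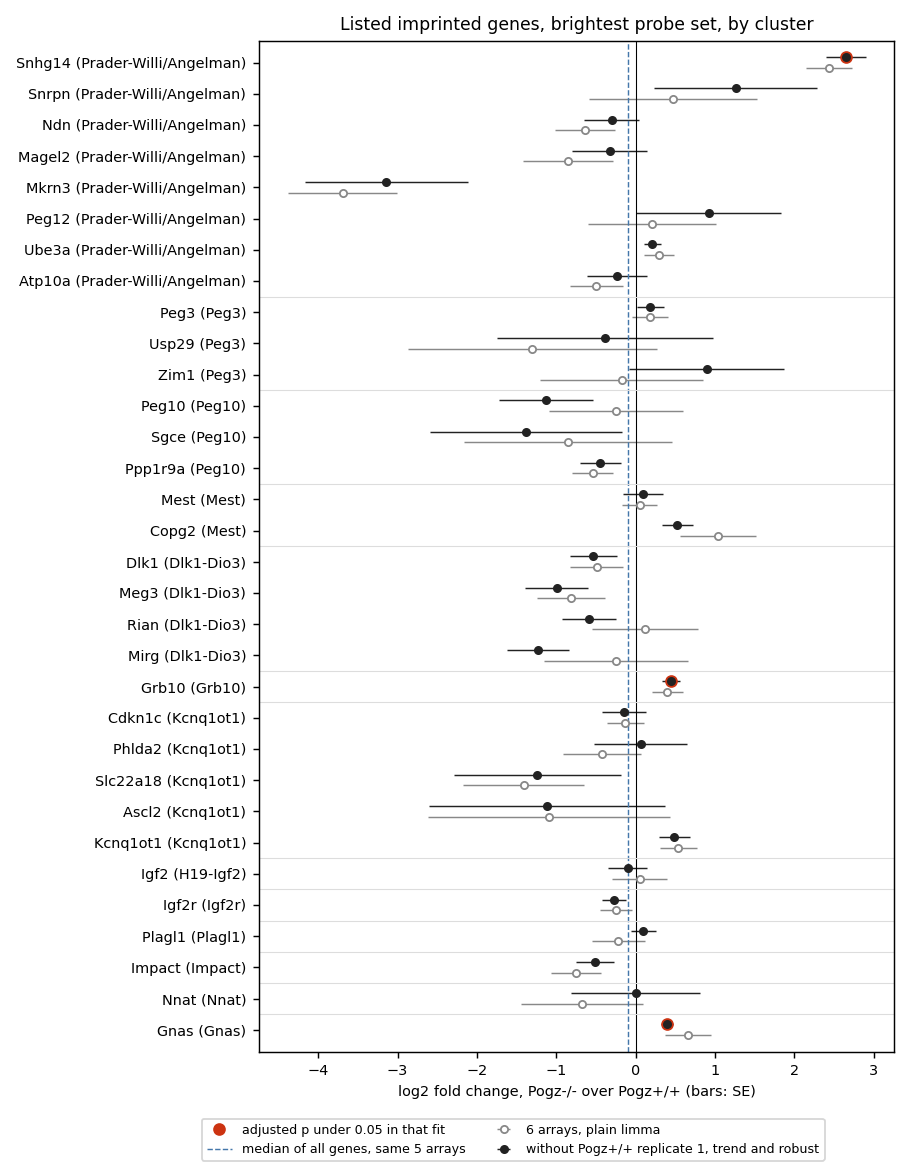
Log2 fold change (x axis, Pogz-/- over Pogz+/+, bars are SE) of the 32 imprinted genes with a probe set of their own, in the order of their clusters; open dots are all 6 arrays in the plain fit, filled dots are without Pogz+/+ replicate 1 with trend and robust, red dots have an adjusted p under 0.05 in that fit, and the dashed line is the median of all genes there (-0.10). Snhg14 (2.65), Grb10 (0.44) and Gnas (0.39) are red, and the genes with the widest bars lie under the median signal of all probe sets.

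Gnas and Grb10, which both act on hormone receptor signalling, rose by small steps. Gnas, the alpha subunit of the stimulatory G protein, was 10.96, 11.75 and 11.79 in Pogz+/+ and 12.14, 12.24 and 12.12 in Pogz-/-. The groups did not overlap, and replicate 1 was the lowest array. Gnas rose by 0.39 without it (SE 0.08, adjusted p = 0.0175), a 1.31-fold change from 11.77 ± 0.03 (SD, n = 2) to 12.16 ± 0.07 (SD, n = 3). Over 6 arrays its log2 fold change was 0.66 (adjusted p = 0.388). The other 4 probe sets of Gnas, from a locus with several promoters, had log2 fold changes of -0.49 to 1.33 without replicate 1 and were not called.

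Grb10, an adaptor that restrains signalling of the insulin and IGF receptors, was 10.07, 9.80 and 10.10 in Pogz+/+ and 10.36, 10.42 and 10.40 in Pogz-/-. The Pogz-/- arrays lay within a narrow range above all Pogz+/+ arrays. It rose by 0.44 without replicate 1, 1.36-fold (SE 0.11, adjusted p = 0.0471), a call that was lost over probe sets (adjusted p = 0.0690), after quantile normalization (0.40, adjusted p = 0.0731) and when intensities under 32 were set to 32 (adjusted p = 0.0536). On its 2 dimmer probe sets the log2 fold change was 0.72 and -0.67, so that they went both ways. Grb10 has a maternal promoter used in most tissues and paternal promoters used in brain, and the windows of its 2 RefSeq starts are printed because its probe sets differ; which start each probe set reports is not known here. Capitals mark CG dinucleotides, 45 in the first window and 9 in the second.
Grb10, chr11:12037371-12037670, minus strand: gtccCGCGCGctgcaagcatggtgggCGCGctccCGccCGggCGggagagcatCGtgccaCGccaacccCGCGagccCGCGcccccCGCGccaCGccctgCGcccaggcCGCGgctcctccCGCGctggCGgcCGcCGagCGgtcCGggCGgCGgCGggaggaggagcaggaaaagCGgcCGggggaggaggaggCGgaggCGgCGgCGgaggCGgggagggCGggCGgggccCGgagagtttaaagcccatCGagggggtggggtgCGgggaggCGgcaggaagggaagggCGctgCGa
Grb10, chr11:12027922-12028221, minus strand: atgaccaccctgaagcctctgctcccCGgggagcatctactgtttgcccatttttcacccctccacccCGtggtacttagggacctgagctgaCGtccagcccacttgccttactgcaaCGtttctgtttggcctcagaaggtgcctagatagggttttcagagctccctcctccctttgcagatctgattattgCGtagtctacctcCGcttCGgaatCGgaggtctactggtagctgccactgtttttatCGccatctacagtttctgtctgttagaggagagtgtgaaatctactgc
The first holds TGCCGC once and the second does not.

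Kcnq1ot1, the paternally expressed noncoding RNA that silences its cluster in cis, was higher on part of its probe sets. The brightest was 7.22, 7.44 and 7.29 in Pogz+/+ and 8.16, 7.84 and 7.58 in Pogz-/-. These groups did not overlap, but the gene was not called (log2 fold change 0.54 over 6 arrays; 0.49 without replicate 1, SE 0.19, adjusted p = 0.208). Another probe set, named after its values were seen, was 6.64, 6.85 and 6.93 in Pogz+/+ and 7.79, 7.82 and 7.77 in Pogz-/-. It rose by 0.91 without replicate 1 (SE 0.17, adjusted p = 0.0175 over probe sets), a call kept after quantile normalization (adjusted p = 0.0236), median centring (0.00265) and a floor of 32 (0.0481), where over all probe sets 1.45% rose and 1.22% fell. Of its 6 probe sets, 5 were higher without replicate 1. Among the 32, the genes that Kcnq1ot1 silences on the paternal copy were not called. Cdkn1c, the cell cycle inhibitor p57, had a log2 fold change of -0.13 over 6 arrays and -0.15 without replicate 1. Phlda2, which restrains placental growth, had -0.42 and 0.067, Slc22a18, a transporter-like protein, -1.41 and -1.24, and Ascl2, a trophoblast transcription factor, -1.09 and -1.12. The last 3 were dim, with SEs of 0.58 to 1.49 without replicate 1. Nap1l4 and Tssc4, which lie at this cluster but outside the 32, were called and are described below.

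**Figure D3:**
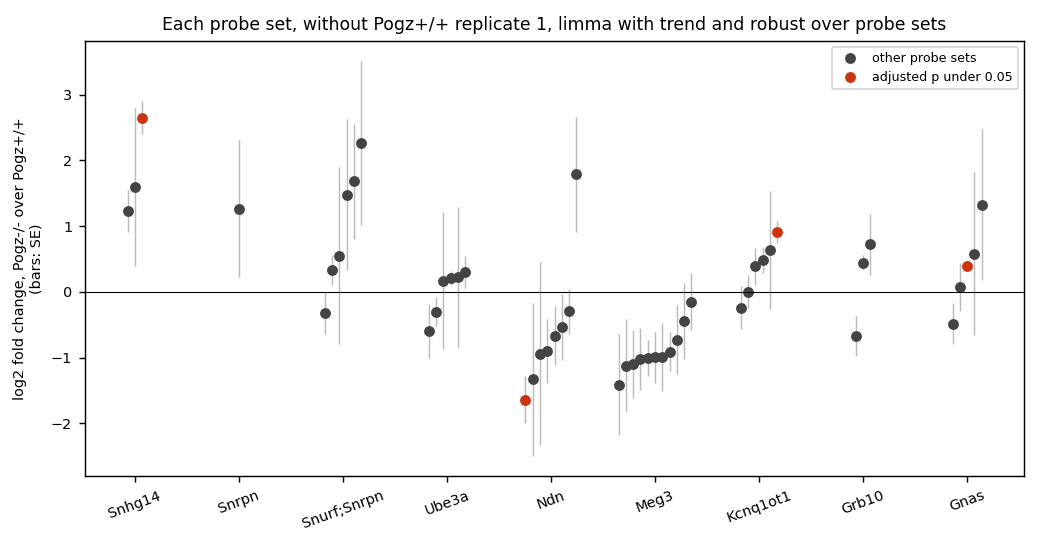
Log2 fold change (y axis, bars are SE) of every probe set of 8 imprinted genes, and of the 6 probe sets that name both Snurf and Snrpn, from limma's trend and robust fit over probe sets without Pogz+/+ replicate 1; red dots have an adjusted p under 0.05. All 3 probe sets of Snhg14 lie above 0 and all 11 of Meg3 below it, while those of Ube3a, Grb10 and Gnas go both ways.

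In the Dlk1-Dio3 cluster, Meg3 and its neighbours had lower values in Pogz-/- without replicate 1, but none was called. Meg3, a long noncoding RNA expressed from the maternal copy, was 10.11, 11.35 and 9.96 in Pogz+/+ and 9.47, 9.63 and 9.88 in Pogz-/-. The groups did not overlap, although Pogz+/+ replicate 3 and Pogz-/- replicate 3 were close. Its log2 fold change was -0.81 over 6 arrays and -0.996 without replicate 1 (SE 0.39, adjusted p = 0.263), and -0.37 without Pogz+/+ replicate 2, its highest array. Of its 11 probe sets, 10 were lower over 6 arrays and 11 without replicate 1, with adjusted p from 0.0966 to 0.909. In 5 of the 11 all Pogz-/- arrays lay below all Pogz+/+ arrays. Of all genes, counted by their brightest probe set alone and so not in the same way, 16.3% did. Probe sets of 1 transcript share the same RNA and are not replicates.

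Rian and Mirg, the noncoding hosts of snoRNAs and microRNAs downstream of Meg3, had log2 fold changes of 0.12 and -0.24 over 6 arrays and of -0.59 and -1.23 without replicate 1 (adjusted p = 0.390 and 0.116). In both, Pogz+/+ replicate 1 was the lowest of all arrays, 4.06 for Rian and 3.59 for Mirg. Dlk1, the paternally expressed Notch ligand-like protein of hepatoblasts, was 7.23, 7.24 and 7.48 in Pogz+/+ and 6.19, 6.97 and 7.32 in Pogz-/- (log2 fold change -0.49 over 6 arrays; -0.53 without replicate 1, SE 0.29, adjusted p = 0.367). Its groups overlapped, and without Pogz-/- replicate 1, its lowest array, the log2 fold change was -0.17.

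Igf2, its receptor and H19, which set the supply of fetal growth factor, were not called. Igf2, fetal insulin-like growth factor, was 8.49, 9.21 and 8.68 in Pogz+/+ and 8.34, 8.87 and 9.32 in Pogz-/- (log2 fold change 0.05 over 6 arrays; -0.10 without replicate 1, SE 0.24, adjusted p = 0.874). Igf2r, the receptor that clears IGF2, was 8.49, 8.68 and 8.46 in Pogz+/+ and 8.45, 8.33 and 8.11 in Pogz-/- (-0.25 and -0.27, adjusted p = 0.365 without replicate 1). On these probe sets, the brightest, the groups of Igf2 overlapped and those of Igf2r were next to each other without overlap. The probe set that names both H19 and the microRNA gene Mir675, which lies within H19, was 12.58, 12.31 and 12.12 in Pogz+/+ and 11.39, 11.99 and 12.30 in Pogz-/-, and also overlapped (-0.44 and -0.32, adjusted p = 0.568). A probe set that names both Igf2r and Airn, its antisense noncoding RNA, had log2 fold changes of -2.00 and -1.68 and was not called. On the dimmer probe set of Igf2 all Pogz-/- arrays lay below all Pogz+/+ arrays. Its log2 fold changes were -1.40 and -1.03 (adjusted p = 0.479 over probe sets without replicate 1). The dimmer probe set of Igf2r went the other way, with overlap (0.18 and 0.295, adjusted p = 0.467).

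Among the other paternally expressed genes, Peg3, a zinc finger transcription factor, was 8.49, 8.60 and 8.37 in Pogz+/+ and 8.35, 8.83 and 8.84 in Pogz-/- (log2 fold change 0.18 over 6 arrays; 0.19 without replicate 1). Plagl1, the zinc finger protein Zac1, was 9.35, 8.56 and 8.25 in Pogz+/+ and 8.34, 8.52 and 8.65 in Pogz-/- (-0.22 and 0.10). Nnat, the proteolipid neuronatin, was 6.00, 4.53 and 3.41 in Pogz+/+ and 4.78, 3.14 and 4.004 in Pogz-/- (-0.67 and 0.0021). The groups of these 3 genes overlapped, and in Plagl1 and Nnat the negative value over 6 arrays came with the high signal of replicate 1. Impact, an inhibitor of the kinase GCN2, was 7.99, 7.46 and 7.07 in Pogz+/+ and 6.91, 6.94 and 6.41 in Pogz-/- (-0.75 and -0.51, adjusted p = 0.275 without replicate 1), without overlap. On its 2 other probe sets the log2 fold change without replicate 1 was 0.35 and 0.28. The first of these was 5.83, 7.18 and 6.62 in Pogz+/+ and 6.95, 7.51 and 7.28 in Pogz-/-, with overlap. It was dimmer over the 6 arrays, but brighter in Pogz-/- (mean 7.25 against 6.75). Mest, a hydrolase of mesoderm, had log2 fold changes of 0.052 and 0.091, Usp29, a ubiquitin peptidase, -1.30 and -0.39, Peg10, a retrotransposon-derived protein of placenta, -0.25 and -1.13, and Sgce, epsilon-sarcoglycan, -0.86 and -1.38. None of these was called in either fit.

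Of the other maternally expressed genes, Copg2, a coat protein subunit of transport vesicles, was 5.25, 6.66 and 6.92 in Pogz+/+ and 7.46, 7.12 and 7.37 in Pogz-/-. Its Pogz-/- arrays were all above the Pogz+/+ arrays (log2 fold change 1.04 over 6 arrays; 0.53 without replicate 1, SE 0.20, adjusted p = 0.189). Ppp1r9a, the phosphatase subunit neurabin, was 7.04, 6.92 and 6.60 in Pogz+/+ and 6.54, 5.96 and 6.44 in Pogz-/-, all below (-0.54 and -0.45, adjusted p = 0.399 without replicate 1). Zim1, a zinc finger protein, had log2 fold changes of -0.18 and 0.90 with an SE of 0.98. Copg2, Kcnq1ot1 and Ube3a were called only after median centring of the 5 arrays without replicate 1 (adjusted p = 0.0311, 0.0255 and 0.0284), a scaling under which the median of all genes was 0.18.

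Outside the 32, 3 imprinted genes and 1 regulator of imprinting changed. Of 36 measured genes in a list of 42 other imprinted genes, Sfmbt2 and Nap1l4 rose and Tssc4 fell without replicate 1, where 2.41% of all genes rose and 2.07% fell. The list had a median log2 fold change of -0.02 beside -0.10 for all genes. Sfmbt2, a Polycomb protein expressed from the paternal copy in early embryo and placenta, was 2.61, 3.84 and 4.51 in Pogz+/+ and 5.90, 6.28 and 6.37 in Pogz-/-. It rose by 2.01 (SE 0.39, adjusted p = 0.0156; 2.53 over 6 arrays, adjusted p = 0.306), from a dim level, and its call was lost with a floor of 32 (1.18, adjusted p = 0.0670). The other probe set of Sfmbt2 was 6.02, 4.88 and 4.38 in Pogz+/+ and 4.98, 4.13 and 4.67 in Pogz-/-, with overlap. It did not change without replicate 1 (-0.037, adjusted p = 0.985 over probe sets). In Pogz+/+ without replicate 1 it was brighter than the called probe set (mean 4.63 against 4.18), and in Pogz-/- dimmer (4.595 against 6.18). The called probe set was thus taken as the brightest through its Pogz-/- signal, a choice not independent of genotype.

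Nap1l4, a histone chaperone at the edge of the Kcnq1ot1 cluster, was 8.60, 9.93 and 10.00 in Pogz+/+ and 10.44, 10.36 and 10.53 in Pogz-/- and rose by 0.48 without replicate 1 (SE 0.10, adjusted p = 0.0196; 0.93 over 6 arrays, adjusted p = 0.396). Tssc4, a splicing factor of the same cluster, was 9.28, 8.73 and 8.57 in Pogz+/+ and 7.81, 8.22 and 7.59 in Pogz-/- and fell by 0.77 without replicate 1 (SE 0.19, adjusted p = 0.0394; -0.98 over 6 arrays, adjusted p = 0.332), a call that median centring ended (adjusted p = 0.0979), as did the fit over probe sets (0.0581). Neither gene overlapped between genotypes. Calcr, the calcitonin receptor, and Zim3, a zinc finger gene of the Peg3 cluster, had large negative values, -3.23 and -1.87 over 6 arrays and -3.83 and -1.62 without replicate 1, but were dim in Pogz-/- and not called (adjusted p = 0.0819 and 0.190).

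Among 19 measured regulators of imprinting, in a list of 20, 1 rose and none fell, beside the same shares of all genes. Ctcf, the insulator protein that binds the H19-Igf2 control region, was 10.13, 10.30 and 10.05 in Pogz+/+ and 10.64, 10.66 and 10.82 in Pogz-/-. It rose by 0.53 without replicate 1 (SE 0.11, adjusted p = 0.0186; 0.55 over 6 arrays, adjusted p = 0.360). The other probe set of Ctcf was 10.38, 10.19 and 9.95 in Pogz+/+ and 10.46, 10.57 and 10.31 in Pogz-/-. Its groups overlapped and it was not called (0.38 without replicate 1, adjusted p = 0.134 over probe sets). The list's median was 0.22 beside -0.10 for all genes. Dnmt1, which maintains methylation through division, had a log2 fold change of -0.48 over 6 arrays and -0.32 without replicate 1 (adjusted p = 0.0782), Dnmt3a, which lays it down, 0.82 and 0.49 (adjusted p = 0.152), and Tet3, which oxidizes it, -0.88 and -0.90.

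Of 11 measured in a list of 12 genes of IGF signalling and the imprinted gene network, 2 rose and none fell without replicate 1, where 2.41% of all genes rose and 2.07% fell. Igf1r, the receptor through which IGF2 signals, was 7.75, 8.32 and 8.46 in Pogz+/+ and 8.97, 8.93 and 9.001 in Pogz-/- and rose by 0.58 without replicate 1 (SE 0.12, adjusted p = 0.0225; 0.79 over 6 arrays, adjusted p = 0.346). Its other probe sets went both ways. One of them was 6.74, 5.61 and 5.45 in Pogz+/+ and 4.75, 4.15 and 4.74 in Pogz-/-, all below (log2 fold change -1.39 over 6 arrays; -0.98 without replicate 1, adjusted p = 0.323 over probe sets), and the mean of all probe sets of Igf1r had a log2 fold change of 0.13 over 6 arrays. Igfbp1, an IGF binding protein of liver, was 7.35, 6.29 and 6.47 in Pogz+/+ and 8.98, 7.24 and 8.48 in Pogz-/- and rose by 1.85 without replicate 1 (SE 0.41, adjusted p = 0.0369; 1.53 over 6 arrays, adjusted p = 0.365), although its groups overlapped through replicate 1 and its call was lost with a floor of 32 (adjusted p = 0.396). Igfbp2 had a log2 fold change of -1.73 over 6 arrays and -1.49 without replicate 1, and Igf2bp1, which binds Igf2 RNA, 0.44 and 0.31; neither was called.

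The unimprinted neighbours of the Prader-Willi/Angelman cluster were measured by 12 of 14 listed genes, of which 1 rose without replicate 1 (2.41% of all genes). Tjp1, a tight junction scaffold, was 7.17, 6.73 and 6.82 in Pogz+/+ and 8.24, 7.85 and 8.31 in Pogz-/-, without overlap, and rose by 1.36 (SE 0.18, adjusted p = 0.00291; 1.23 over 6 arrays, adjusted p = 0.306). Nipa1, a magnesium transporter, had log2 fold changes of 0.58 and 0.24, and the receptor genes Chrna7 and Gabrg3 had -0.91 and -2.83 over 6 arrays and -1.11 and -2.34 without replicate 1. These 3 were not called.

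**Figure D4:**
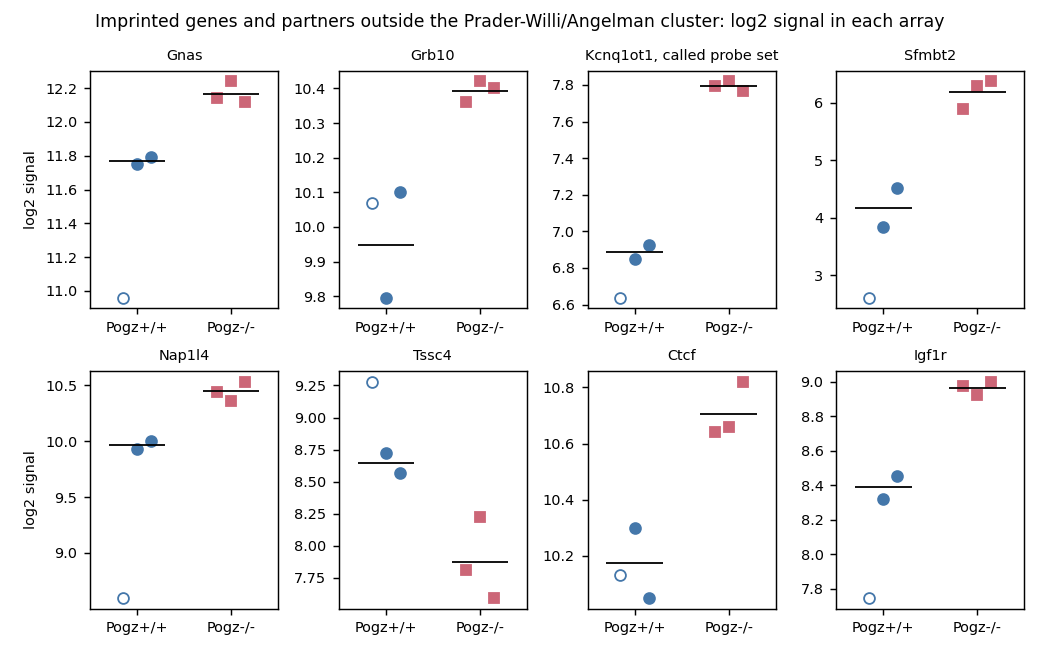
Log2 signal (y axis, a separate scale in each panel) of Gnas, Grb10, the called dimmer probe set of Kcnq1ot1, and of Sfmbt2, Nap1l4, Tssc4, Ctcf and Igf1r in each array, by genotype; open circles are Pogz+/+ replicate 1, filled circles the other Pogz+/+ arrays, squares Pogz-/- arrays, and lines are means without replicate 1. No group overlaps the other in any panel, Tssc4 is the one that is lower in Pogz-/-, and replicate 1 is the lowest array for Gnas, the Kcnq1ot1 probe set, Sfmbt2, Nap1l4 and Igf1r.

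Beside these results, the summed signals of markers of FL cell types, and of neurons, were lower in Pogz-/- as deposited. The summed signal of 9 erythroid markers, on the log2 scale, lay between 15.98 and 16.42 in Pogz+/+ but between 15.47 and 15.58 in Pogz-/-. Slc4a1, Alas2, Klf1 and Tfrc fell without replicate 1 (by 0.69, 0.48, 0.39 and 0.41), with log2 fold changes over 6 arrays of -1.07, -0.44, -0.42 and -0.38 (adjusted p = 0.359, 0.382, 0.387 and 0.415). Of these calls, Slc4a1 alone also passed after quantile normalization (adjusted p = 0.00609) and median centring (0.00536). Hba-a1 had a log2 fold change of -1.72 without replicate 1 (adjusted p = 0.249). Its 1 probe set was dim, 5.78, 6.31 and 4.51 in Pogz+/+ and 4.12, 4.15 and 2.81 in Pogz-/-, where Slc4a1 was 13.54 to 15.48. It is not read here as the level of alpha-globin RNA. The sum of 10 hepatoblast markers, the cells that express Dlk1, Igf2 and H19, was 14.77 to 15.64 and 14.07 to 14.75, and Afp, alpha-fetoprotein, fell by 0.66 without replicate 1 (adjusted p = 0.00879, 0.290 after quantile normalization; -0.96 over 6 arrays, adjusted p = 0.360), where Alb, Apoa1 and Ttr had log2 fold changes of 0.41, -0.64 and -0.53 and were not called. For 13 markers of stroma and endothelium, in which Meg3 and Mest are also known to be expressed, the sum was 9.66 to 9.99 and 9.31 to 9.47. None of these was called, with log2 fold changes without replicate 1 of -0.64 for Col1a1, -0.51 for Col1a2, -0.47 for Kdr and 0.80 for Pdgfra. For 12 neuron markers, the cell type in which Snhg14, Ndn and Magel2 are best known, the sum was 7.91 to 9.29 and 7.54 to 7.84, and none was called. Without replicate 1, 8 of the 12 were lower and 4 higher. Stmn2, Neurod1, Elavl4 and Syt1, with the largest moderated t over 6 arrays, had log2 fold changes of -1.70, -1.22, -1.20 and -0.53, while the 4 higher ones were Rbfox3 (1.51, unadjusted p = 0.0162, adjusted p = 0.158), Nefl (1.27), Elavl3 (0.76) and Gap43 (0.60). As deposited, all 4 sums were thus lower in every Pogz-/- array, for hepatoblasts and neurons by narrow margins (14.75 against 14.77 and 7.84 against 7.91). Being sums of intensities, they follow the brightest genes most, for hepatoblasts Afp (13.60 to 15.40). After median centring the erythroid sum alone stayed lower in every Pogz-/- array (10.56 to 10.63 against 10.66 to 10.81), while the hepatoblast, stroma and neuron sums overlapped between the genotypes, and after quantile normalization the hepatoblast and neuron sums overlapped. Their part in these results was not tested.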

How the data were processed

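RNA of E14.5 FL cells from 3 Pogz+/+ and 3 Pogz-/- embryos was hybridised to Affymetrix Mouse Genome arrays, 1 for each sample, after 3′ labelling. The authors deposited intensities on a linear scale, 1 for each probe set and array, from Affymetrix Expression Console (algorithm and version not given in the sources used here). Each array has a 2% trimmed mean of 150, while medians differ from 29.7 to 54.3; precision is limited by the number of arrays. The labels call the samples biological replicates.

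Groups and replicate numbers came from the sample titles. Log2 was taken without a pseudocount, as all intensities were above 0, and 64 control probe sets were left out. Of 45037 probe sets, 34945 name 1 gene in the platform annotation, 932 name several and 9160 are unnamed here; genes were taken from the first kind, each by its brightest probe set. Sequences and neighbours came from RefSeq tables of GRCm38.p6, in which 31 of the 37 genes had promoter windows, 43 in all. Only promoter windows are given coordinates, because no build is named for the arrays.

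Pogz-/- was compared with Pogz+/+ by lmFit and eBayes of limma 3.58.1 (R 4.3.3). The model held genotype alone, tests were two-sided, and p-values were adjusted by Benjamini-Hochberg over all genes or, for single probe sets, all probe sets, and called under 0.05. The alternatives were quantile normalization, median centring, trend and robust, leaving out dim genes, a floor of 32, the mean of all probe sets of a gene, the methods' t-test, the replicate block, leaving out each array, and a 1.5-fold minimum. The fits were tested on simulated arrays.

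The members and lists were chosen with earlier results of these data known. The text names every member with a probe set; from each list, the genes called without Pogz+/+ replicate 1 and the 4 with the largest moderated t over 6 arrays. The lists are other imprinted genes, imprinting regulators, neighbours of the Prader-Willi/Angelman cluster, imprinted gene network partners, and markers of hepatoblasts, stroma and endothelium, neurons and erythroid cells.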

Additional observations from a re-analysis of the deposited data

How the results depend on the processing

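Snhg14 was higher in Pogz-/- under every alternative run, with log2 fold changes of 2.01 to 2.92. It was called with trend and robust over 6 arrays (2.44) and without Pogz+/+ replicate 1 as deposited (2.65), after quantile normalization (2.80), after median centring (2.92) and with a floor of 32 (2.56), and not in any plain fit; leaving out 1 array gave 2.24 to 2.65. Of the 32 members, 0 were called over 6 arrays in the plain fit and 0 with the replicate block, 1 with trend and robust, and, without replicate 1 with trend and robust, 3 as deposited, 2 after quantile normalization, 6 after median centring, 2 with a floor of 32 and 1 with a 1.5-fold minimum. Without replicate 1 the plain fit called 0 of the 32 and 0 of all genes. The other imprinted genes and regulators had 0 called over 6 arrays and 4, 4, 12 and 3 without replicate 1 in the first 4 of these settings, counts added after the data were examined. All genes called numbered 815, 679, 1944 and 717 there. The median over the members moved from -0.25 to 0.21 after median centring, -0.011 after quantile normalization and, without replicate 1 with trend and robust, 0.080, -0.060 and, with a floor of 32, 0, following all genes (0.29, -0.016, 0.18, -0.022 and 0); leaving out 1 array gave -0.42 to -0.11.

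The replicate block (Snhg14 2.44, adjusted p = 0.442 from limma) changed no call; the deviations of same-numbered arrays from their group means correlated at 0.00412, -0.00884 and -0.0133, so that the numbers did not pair the samples. Signs of genes that were not called turned as follows. Over 6 arrays, median centring gave values for Alas2 (0.018), Cdkn1c (0.33), Igf2r (0.21), Klf1 (0.036), Mirg (0.22), Peg10 (0.21), Phlda2 (0.037), Plagl1 (0.24), Tfrc (0.085) and Zim1 (0.28), and quantile normalization for Cdkn1c (0.13), Igf2 (-0.071), Mirg (0.077), Peg10 (0.20), Phlda2 (0.048) and Zim1 (0.30). A floor of 32 did so for Peg12 (-0.061), Rian (-0.20), Sgce (0.016) and Snrpn (-0.091), and the mean of all probe sets for Ascl2 (0.0086), Igf2 (-0.68), Impact (0.072), Peg3 (-0.46), Plagl1 (0.050), Ppp1r9a (0.10), Rian (-0.25) and Ube3a (-0.076). Without replicate 1 with trend and robust, the signs turned for Igf2 (-0.10), Phlda2 (0.067), Plagl1 (0.100), Rian (-0.59) and Zim1 (0.90). With a floor of 32 there they turned for Igf2 (-0.10), Plagl1 (0.100), Rian (-0.59) and Usp29 (0.076), after median centring for Atp10a (0.034), Cdkn1c (0.13), Nnat (0.27), Phlda2 (0.34), Plagl1 (0.37), Rian (-0.32) and Zim1 (1.17), and after quantile normalization for Igf2 (-0.18), Nnat (0.32), Phlda2 (0.36), Plagl1 (0.036), Rian (-0.47) and Zim1 (1.23). Leaving out 1 array moved Ascl2 from -2.04 to 0.68, Cdkn1c from -0.25 to 0.018, Igf2 from -0.19 to 0.30, Mest from -0.076 to 0.15, Mirg from -1.23 to 0.40, Peg10 from -1.13 to 0.29, Peg12 from -0.65 to 0.92, Phlda2 from -0.76 to 0.067, Plagl1 from -0.45 to 0.10, Rian from -0.59 to 0.62, Sgce from -1.90 to 0.47, Snrpn from -0.72 to 1.26, Usp29 from -2.38 to 0.10 and Zim1 from -1.16 to 0.90. The cause of these turns was not tested. Signal under the median of all probe sets limits 11 members, among them Mkrn3 and Snrpn. The calls without replicate 1 rest on 2 Pogz+/+ arrays.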
